A study of Mus musculus with 12 samples.

Results

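Convergent beta CDR3s are complementarity-determining region 3 (CDR3) amino acid sequences of the T cell receptor beta chain that several different nucleotide sequences encode. A beta CDR3 was called convergent in a library when at least 4 distinct nucleotide sequences of it, called forms here, each had at least 2 unique molecular identifiers (UMIs). A UMI tags 1 RNA molecule before amplification, and a UMI counted when at least 3 reads carried it. Forms 1 base away from a form with at least 10 times their UMIs were not counted. By this rule, 1994 of the 486654 beta CDR3s listed over 12 libraries were convergent in at least 1 library. Of the others, 2708 reached at most 3 counted forms in any library, 11859 reached 2 and 217409 reached 1, and the rest had none. The members were chosen by the number of forms and the UMIs of each form in these libraries, so both are given as a description with no test.

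The libraries came from CD8+ T cells of C57BL/6 wild-type mice that carried MTCQ1-2 tumors, a mouse line of oral squamous cell carcinoma. Cells of the tumor, the spleen and the tumor-draining lymph node (tdLN) were isolated with CD8 magnetic beads after 3 doses, 3 days apart, of 1 of 4 agents. These were control IgG, then IL-10-Fc, then αCSF1R and last BF10, and 4 values given in a row follow this order. IL-10-Fc is interleukin-10 joined to an antibody Fc part, αCSF1R blocks the receptor for colony-stimulating factor 1 on which macrophages depend, and BF10 fuses IL-10 to a CSF-1R-blocking antibody. GEO's labels give an equivalent dose of 30 mg/kg for all agents. Each of the 12 combinations of tissue and treatment was 1 library of 100 ng of RNA pooled from 3 mice. Forms can therefore not be assigned to a mouse, no group has a replicate, and the intervals below cover counting error only. The tables list T cell receptor transcripts, so markers such as Cd8a were not measured. UMIs count RNA molecules, and few cells with much receptor RNA cannot be told apart from many cells with little.

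The beta chain is assembled in the thymus by joining 1 V, 1 D and 1 J segment of the Trb locus. Segment ends are trimmed, and bases that no segment encodes are added at the joints. The CDR3 spans these joints and contacts the peptide held by an MHC molecule. The genetic code is degenerate, so different joining events can give 1 amino acid sequence, which is called convergent recombination. Separate T cell clones with the same CDR3 can also be enriched together when cells with that sequence are selected for one antigen.

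The first forms below show how 1 CDR3 is built from several V segments. They are the 6 forms with the most UMIs, in the control IgG spleen library, of the CDR3 that reads SGTGGYEQYF after the common start CASS, out of its 14 counted forms there. Small letters match the end of the V segment on the left and the start of the J segment on the right. Capitals mark bases that match neither, and germline segments are those of RefSeq for GRCm38.p6. The D segments that capitals can hold are Trbd1 (chr6:41533201-41533212, plus strand, gggacagggggc) and Trbd2 (chr6:41542163-41542176, plus strand, gggactgggggggc).
Form 1, Trbv3 and Trbj2-7: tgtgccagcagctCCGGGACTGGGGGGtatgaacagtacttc
Form 2, Trbv3 and Trbj2-7: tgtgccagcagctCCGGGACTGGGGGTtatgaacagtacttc
Form 3, Trbv16 and Trbj2-7: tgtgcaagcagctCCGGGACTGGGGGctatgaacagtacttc
Form 4, Trbv14 and Trbj2-7: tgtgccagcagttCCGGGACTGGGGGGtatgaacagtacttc
Form 5, Trbv12-1 and Trbj2-7: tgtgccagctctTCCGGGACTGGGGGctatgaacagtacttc
Form 6, Trbv29 and Trbj2-7: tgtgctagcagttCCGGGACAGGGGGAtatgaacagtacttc

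The next forms are 7 of the 8 forms of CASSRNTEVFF counted in the control IgG tumor library, whose leading convergent CDR3 it was, and the ninth, its largest form in the αCSF1R tumor library. They run from Trbv17 (chr6:41163092-41163556, plus strand) to Trbj1-1 (chr6:41533864-41533911, plus strand).
Form 1: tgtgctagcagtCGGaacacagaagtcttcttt
Form 3: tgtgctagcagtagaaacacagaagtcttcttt
Form 4: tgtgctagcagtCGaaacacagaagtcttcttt
Form 5: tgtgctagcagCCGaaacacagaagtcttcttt
Form 6: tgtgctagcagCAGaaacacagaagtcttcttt
Form 7: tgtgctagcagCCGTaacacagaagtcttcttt
Form 8: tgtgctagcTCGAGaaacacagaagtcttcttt
Form 9: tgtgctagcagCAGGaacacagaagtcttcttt

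The last set is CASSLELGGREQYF, from Trbv16 (chr6:41151791-41152230, plus strand) to Trbj2-7 (chr6:41543810-41543856, plus strand). The 6 of its 9 counted forms that were listed in a tumor are shown, because the leading forms there differed between libraries. The other counted forms had at most 4 UMIs over all libraries, in spleens or a tdLN, and are not printed. Their printing was chosen after their values were seen.
Form 1: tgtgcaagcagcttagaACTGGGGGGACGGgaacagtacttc
Form 2: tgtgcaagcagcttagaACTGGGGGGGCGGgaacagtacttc
Form 3: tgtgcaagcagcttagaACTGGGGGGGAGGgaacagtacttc
Form 4: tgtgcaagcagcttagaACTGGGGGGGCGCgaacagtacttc
Form 5: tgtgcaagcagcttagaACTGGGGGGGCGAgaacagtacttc
Form 6: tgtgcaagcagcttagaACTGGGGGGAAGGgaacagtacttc

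The number of convergent CDR3s differed most between tumors. The control IgG tumor library held 17, or 0.199% of its 8547 beta CDR3s. The IL-10-Fc tumor library held 345 of 45073 (0.765%), the αCSF1R tumor library 1 of 2289 (0.0437%) and the BF10 tumor library 688 of 70488 (0.976%). The spleen libraries were close to each other, with 540 (0.851% of CDR3s), 617 (0.796%), 496 (0.942%) and 496 (0.725%) in the order of agents above. The tdLN libraries held 293 (0.501%), 560 (0.674%), 483 (0.429%) and 442 (0.395%). With 1 library per group, no treatment difference in these numbers can be tested.

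Depth differed between these libraries, and a form needs 2 UMIs to count. Beta chain UMIs numbered 32775 in the αCSF1R tumor library, 103996, 130038 and 175021 in the control IgG, IL-10-Fc and BF10 tumor libraries, and 124437 to 210520 in the spleens and tdLNs. Thinned to 32775 UMIs, the expected number was 4.69 in the control IgG tumor, 10.1 in the IL-10-Fc tumor, 1.0 in the αCSF1R tumor and 5.56 in the BF10 tumor. The same number was 5.01 to 7.21 in spleens and 2.49 to 3.86 in tdLNs. The IL-10-Fc to control IgG ratio in tumors was 20.3 as listed (95% interval 12.5 to 35.2) and 2.15 at equal UMIs. The BF10 to IL-10-Fc ratio in tumors was 1.99 as listed (1.75 to 2.28) and 0.553 at equal UMIs. The tumor ratios at equal UMIs rest on expected numbers of at most 10.1 and have no interval. They are too few to order these libraries. The IL-10-Fc to control IgG ratio in spleens was 1.14 (1.02 to 1.28) and 0.949 at 150290 UMIs. The BF10 to control IgG ratio in tdLNs was 1.51 (1.30 to 1.75) and 0.440 at 124437 UMIs. UMIs were also read less deeply in 2 of the tdLN libraries. Of the UMIs of convergent forms, 9.83% in αCSF1R tdLNs and 8.77% in BF10 tdLNs had at least 7 reads, against 40.9% in control IgG tdLNs and 34.8% in IL-10-Fc tdLNs. The part of read depth in the tdLN ratio was not tested.

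**Figure D1:**
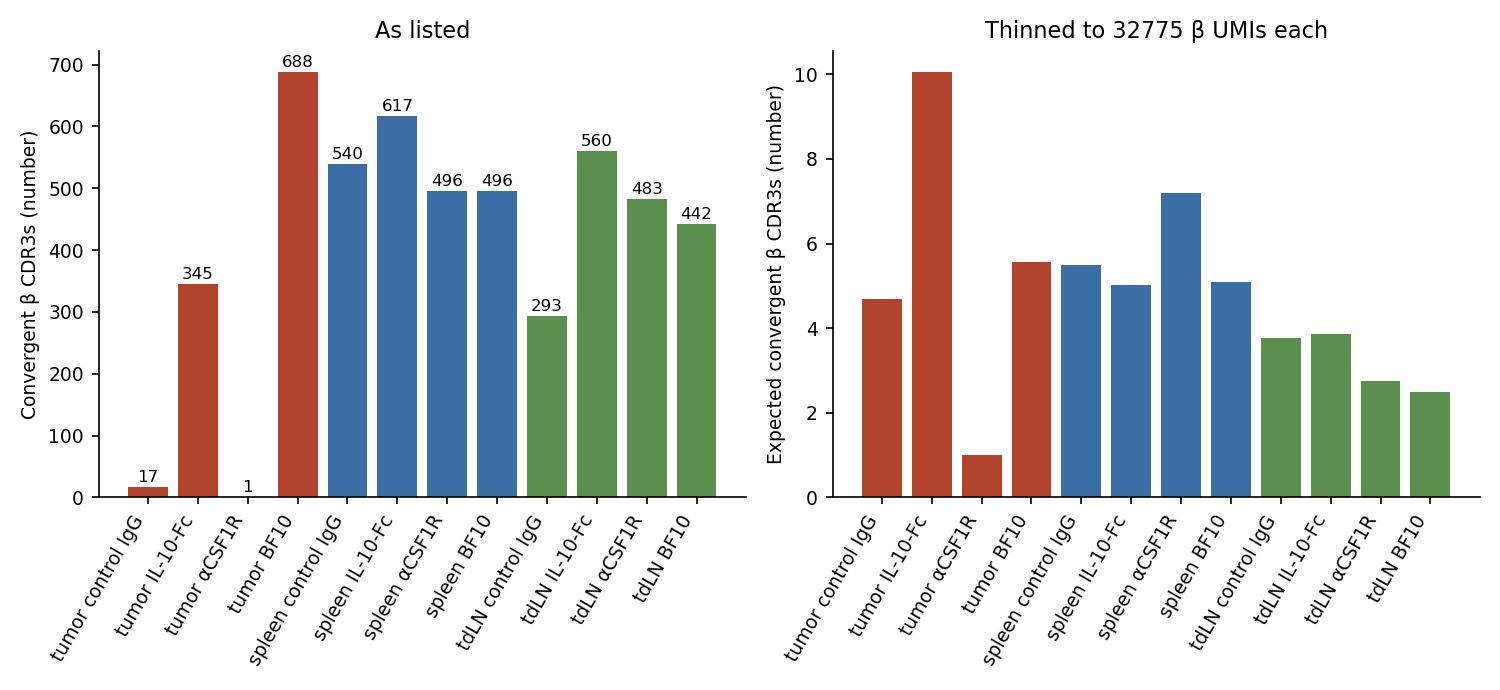
Number of convergent beta CDR3s in each of the 12 libraries (bars, 1 library each, coloured by tissue), as listed on the left and as the expected number after thinning every library to 32775 beta UMIs on the right. The BF10 tumor library holds the most as listed (688), and the IL-10-Fc tumor library holds the most after thinning (10.1).

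The counted forms of convergent CDR3s took 5.23% to 6.16% of beta UMIs in spleens and 3.79% to 5.40% in tdLNs. In the tumors of the 4 agents they took 6.08% (95% Wilson interval 5.93% to 6.22%), 5.93% (5.81% to 6.06%), 2.0% (1.85% to 2.16%) and 6.92% (6.80% to 7.04%). The makeup of these shares differed. In the αCSF1R tumor the whole share was 1 CDR3, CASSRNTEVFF. In the control IgG tumor the same CDR3 held 5694 of the 6318 UMIs concerned. In the BF10 tumor the 688 CDR3s had a median of 14 UMIs and none had more than 179.

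Most convergent CDR3s were built from several V segments and 1 J segment. The median number of V regions per convergent CDR3 was 4.0 in each spleen and tdLN library. Of the 4978 pairs of a convergent CDR3 and a library, 196 had a single V region and 52 had more than 1 J region. The median number of counted forms was 4.0 or 5.0 in every library. The CDR3 with the most forms was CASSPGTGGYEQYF, with 28 forms over 14 V regions in the BF10 spleen. It also led the other spleen libraries except that of IL-10-Fc, and the IL-10-Fc and BF10 tumors, with 19 to 26 forms. In the IL-10-Fc tumor it was tied at 19 forms with the CDR3 with SGTGGYEQYF. In tdLNs it led with 20 forms in αCSF1R, 22 in IL-10-Fc and 27 in BF10 mice. The exceptions were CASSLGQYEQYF, with 25 forms in the IL-10-Fc spleen, and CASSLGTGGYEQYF, with 15 in the control IgG tdLN. Each of these 3 CDR3s ends in the Trbj2-7 residues YEQYF.

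A few CDR3s were convergent in nearly every library. No CDR3 was convergent in all 12 libraries, 8 were convergent in 11, and 1037 (52.0%) were convergent in 1. The 5 convergent in the most libraries, with the most forms in sum, were the printed CDR3 with SGTGGYEQYF, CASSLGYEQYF, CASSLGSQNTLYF, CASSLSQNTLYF and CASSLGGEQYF. The αCSF1R tumor library was the exception for each of them. The CDR3 with SGTGGYEQYF had 42, 68, 12 and 113 UMIs in the tumors, 62, 78, 79 and 64 in the spleens, and 38, 66, 62 and 56 in the tdLNs. As a share of beta UMIs it was 0.0366% to 0.0646% in tumors, 0.0404% to 0.0511% in spleens and 0.0275% to 0.0357% in tdLNs. All 12 libraries thus lay between 0.0275% and 0.0646%. Its V segments differed between libraries, with Trbv3 in 6 of the 14 forms of the control IgG spleen and Trbv12-2 in 5 of the 19 forms of the IL-10-Fc tumor. Of its forms in the control IgG spleen, 11 were listed in at least 7 libraries and 2 were listed in that library alone.

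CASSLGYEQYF, at 11 residues, is shorter by 3. It had 40, 46, 10 and 81 UMIs in the tumors. Its share of beta UMIs was 0.0305% to 0.0463% in tumors, 0.0258% to 0.0486% in spleens and 0.0271% to 0.0289% in tdLNs. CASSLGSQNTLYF and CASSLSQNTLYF, which end in the Trbj2-4 residues, reached at most 17 and 15 forms. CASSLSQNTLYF was not listed in the αCSF1R tumor, where 0 UMIs of 32775 allow a share of up to 0.00915%, and it had 41, 55 and 45 UMIs in the control IgG, IL-10-Fc and BF10 tumors.

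Over spleens and tdLNs, 60 CDR3s were convergent in all 8 libraries, and 51 of these were also convergent in both the IL-10-Fc and the BF10 tumor. Being convergent in 1 library did not mean being listed in 1. Of the 1994 convergent CDR3s, 1435 (72.0%) were listed in all 8 spleen and tdLN libraries, against 0.645% of all beta CDR3s (3139 of 486654). This contrast is partly set by the rule, because 1735 of the 1994 were convergent in at least 1 of these 8 libraries. The rule also asks for several UMIs, which makes listing easier, while all beta CDR3s include those with no counted form. Of the 1037 that were convergent in a single library, 565 were listed in all 8. Listing in all 12 libraries was seen for 108 convergent CDR3s and for 128 CDR3s in all.

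Of the 836 CDR3s convergent in a tumor library, 259 were convergent in no spleen or tdLN library. Of these 259, 258 were listed in at least 1 spleen or tdLN library and 136 in all 8. The only one listed in no spleen or tdLN library, and in no other tumor library, was a string of 109 residues in the control IgG tumor with 4 forms and 47 UMIs. Its V assignment joins the names of 2 V segments. It ends in the residues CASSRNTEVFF and was kept by the rule beside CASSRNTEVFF itself, so it may not be a separate CDR3. Without it the control IgG tumor held 16 convergent CDR3s.

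Convergent CDR3s were listed more often in the other libraries of their tissue than CDR3s with fewer forms. In spleens, the share of CDR3s listed in all 3 other spleen libraries was 5.5% to 7.30% with 1 counted form, 38.7% to 41.8% with 2, 65.0% to 73.0% with 3 and 88.9% to 93.5% with at least 4. Over all CDR3s of the 4 spleen libraries this share was 8.17%, 6.69%, 9.85% and 7.58%. In tdLNs it was 8.64% to 13% with 1 form and 94.1% to 97.6% with at least 4, beside 13.1%, 9.21%, 6.8% and 6.83% over all CDR3s of the 4 libraries. A CDR3 with more forms also has more UMIs and is found more easily, so the share was set out within classes of UMIs. Among CDR3s with 12 to 19 UMIs in a spleen library, 5.56% to 16% of those with 1 form and 90.5% to 93.2% of those with at least 4 were listed in all 3 others, the former in the 3 libraries with at least 20 such CDR3s. In tdLNs these shares were 9.91% to 15% and 95.7% to 99.4%. The ranges did not overlap in either tissue.

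**Figure D2:**
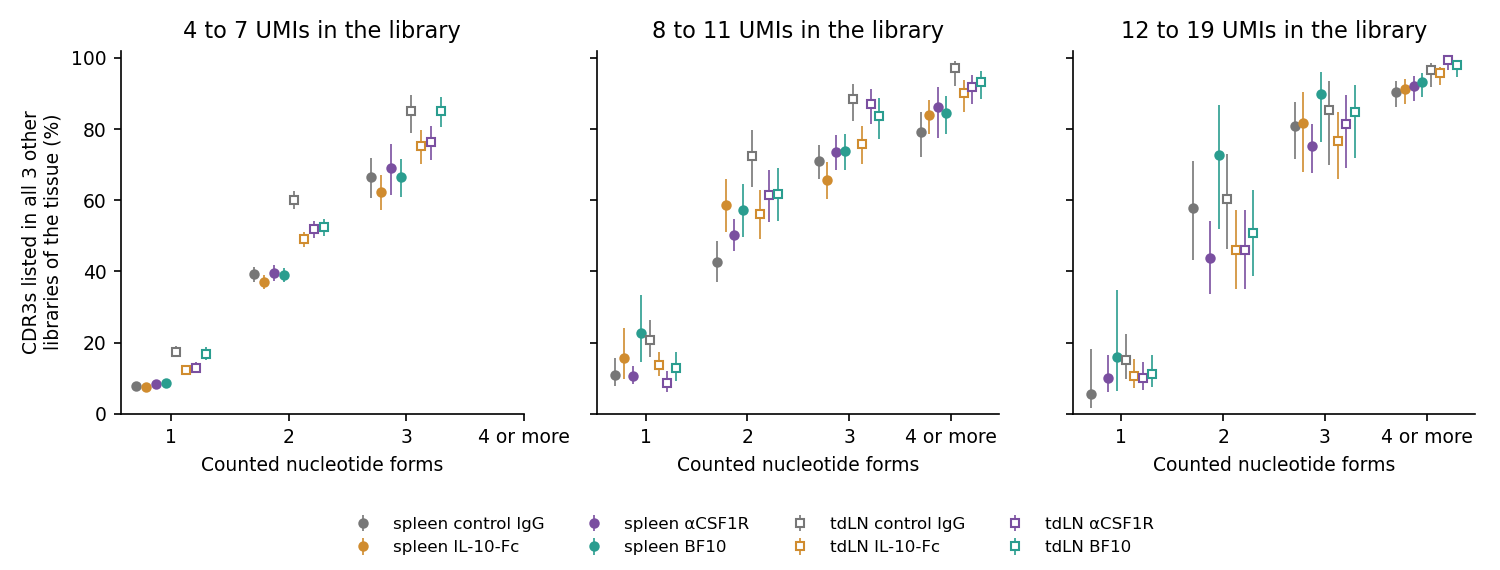
Share of beta CDR3s of a spleen or tdLN library that were listed in all 3 other libraries of the tissue (y axis, %), by the number of counted nucleotide forms (x axis) and in panels of 4 to 7, 8 to 11 and 12 to 19 UMIs. Points are libraries, with filled circles for spleens, open squares for tdLNs and bars for 95% Wilson intervals, and 4 forms need more than 7 UMIs, so the first panel has no point there. Within 12 to 19 UMIs the share goes from at most 16% with 1 form to at least 90.5% with at least 4.

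In tumors the αCSF1R library limits any share over all 3 others, so listing in at least 1 other tumor library was used. It held for 98.8% of the convergent CDR3s of the IL-10-Fc tumor and 94.0% of those of the BF10 tumor, against 25.1% and 16.9% of all their CDR3s. In the control IgG tumor it held for 16 of 17 (36.3% of all CDR3s), and in the αCSF1R tumor for 1 of 1 (37.6% of all).

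The forms themselves were also shared. In spleens, 45.2% to 49.1% of the counted forms of convergent CDR3s were listed with the same bases in another spleen library, against 9.30% to 9.80% of the counted forms of other CDR3s. In tdLNs the values were 57.0% to 63.1% and 13.2% to 16.8%. In the control IgG, IL-10-Fc and BF10 tumors the convergent values were 52.4%, 34.6% and 22.0%, and in the αCSF1R tumor 3 of the 4 forms of its single convergent CDR3 (75.0%). Those of other CDR3s in tumors were 3.34% to 12.6%. These shares were not set out within classes of UMIs. Convergent forms had the higher mean UMIs per form in each library, at 2.92 to 3.62 against 2.50 to 3.16 in spleens and 77.0 against 13.2 in the control IgG tumor. More UMIs make listing easier, and the part of this was not tested. The tables give UMI counts and not UMI sequences, so molecules carried over between libraries were not tested.

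The convergent CDR3s of the control IgG and αCSF1R tumors were led by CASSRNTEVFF, whose abundant forms all used Trbv17. It had 5732 beta UMIs in the control IgG tumor (5.51%), 466 in the IL-10-Fc tumor (0.358%), 660 in the αCSF1R tumor (2.01%) and 254 in the BF10 tumor (0.145%). It had 3, 14, 4 and 4 UMIs in the spleens and 70, 126, 46 and 44 in the tdLNs. All 4 tumor values were thus above all 8 others. The share of UMIs in the tumor over that in the tdLN was 98.0-fold in control IgG mice (95% interval 77.4 to 125.9) and 92.2-fold in αCSF1R mice (68.3 to 127.1). It was 5.26-fold in IL-10-Fc mice (4.31 to 6.46) and 6.73-fold in BF10 mice (4.87 to 9.49). This CDR3 was named for its UMIs in tumors, so these folds are a description.

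Several forms of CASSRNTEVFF were abundant side by side. In the control IgG tumor form 1 had 1843 UMIs, and forms 3 to 8 had 924, 568, 298, 270, 63 and 4. Form 3, which is germline Trbv17 joined to germline Trbj1-1 with no other base, was listed in all 12 libraries, with 924, 384, 233 and 199 UMIs in the tumors, 1 to 6 in the spleens and 11 to 95 in the tdLNs. Form 1, the largest, was almost confined to the control IgG tumor, with 1 UMI in the IL-10-Fc tumor, 5 in the IL-10-Fc tdLN and 1 in the BF10 tdLN besides. Form 4 was listed in the control IgG tumor alone, at 568 UMIs. The αCSF1R tumor had another leading form, form 9, with 265 UMIs, and form 3 had 233 and a Trbv13-1 form had 7. Of 15 forms counted in any library, 11 were listed in a tumor. In the IL-10-Fc spleen the CDR3 had 14 UMIs in all and was convergent, with 4 counted forms of 2 to 6 UMIs from 3 V segments.

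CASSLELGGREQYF was the leading convergent CDR3 of the IL-10-Fc tumor, and its forms differed between the libraries of different treatments. It had 2, 1447, 339 and 358 UMIs in the tumors, 2, 14, 1 and 0 in the spleens, and 3, 238, 14 and 111 in the tdLNs. The control IgG libraries were the lowest of each treatment series in tumors and tdLNs. In the IL-10-Fc tumor forms 1 to 4 had 468, 352, 326 and 285 UMIs, and in the IL-10-Fc tdLN they had 64, 7, 10 and 153. Form 5 led the BF10 tumor with 290 UMIs and the BF10 tdLN with 73. The division was not complete. Form 3 also had 55 UMIs in the BF10 tumor and 7 in the BF10 tdLN, and form 4 had 5 and 29. Form 6 led the αCSF1R tumor with 334 UMIs and the αCSF1R tdLN with 14. No form was listed in all 4 tumors. Each treatment was 1 pool of 3 mice, so a difference between treatments cannot be told apart here from one between mice. The 4 forms of the IL-10-Fc tumor differ from each other by at most 2 bases and keep all 17 germline bases of Trbv16. The UMI share in the tumor over that in the tdLN was 8.65-fold in IL-10-Fc mice (7.54 to 9.96), 3.76-fold in BF10 mice (3.03 to 4.69) and 155.5-fold in αCSF1R mice (91.4 to 287.6). It was convergent in 3 libraries, all of IL-10-Fc mice. In the spleen its 4 counted forms had only 2 to 5 UMIs each. In the tdLN form 2 was not counted, being near a larger form, and the fourth counted form was a Trbv12-2 form of 2 UMIs.

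**Figure D3:**
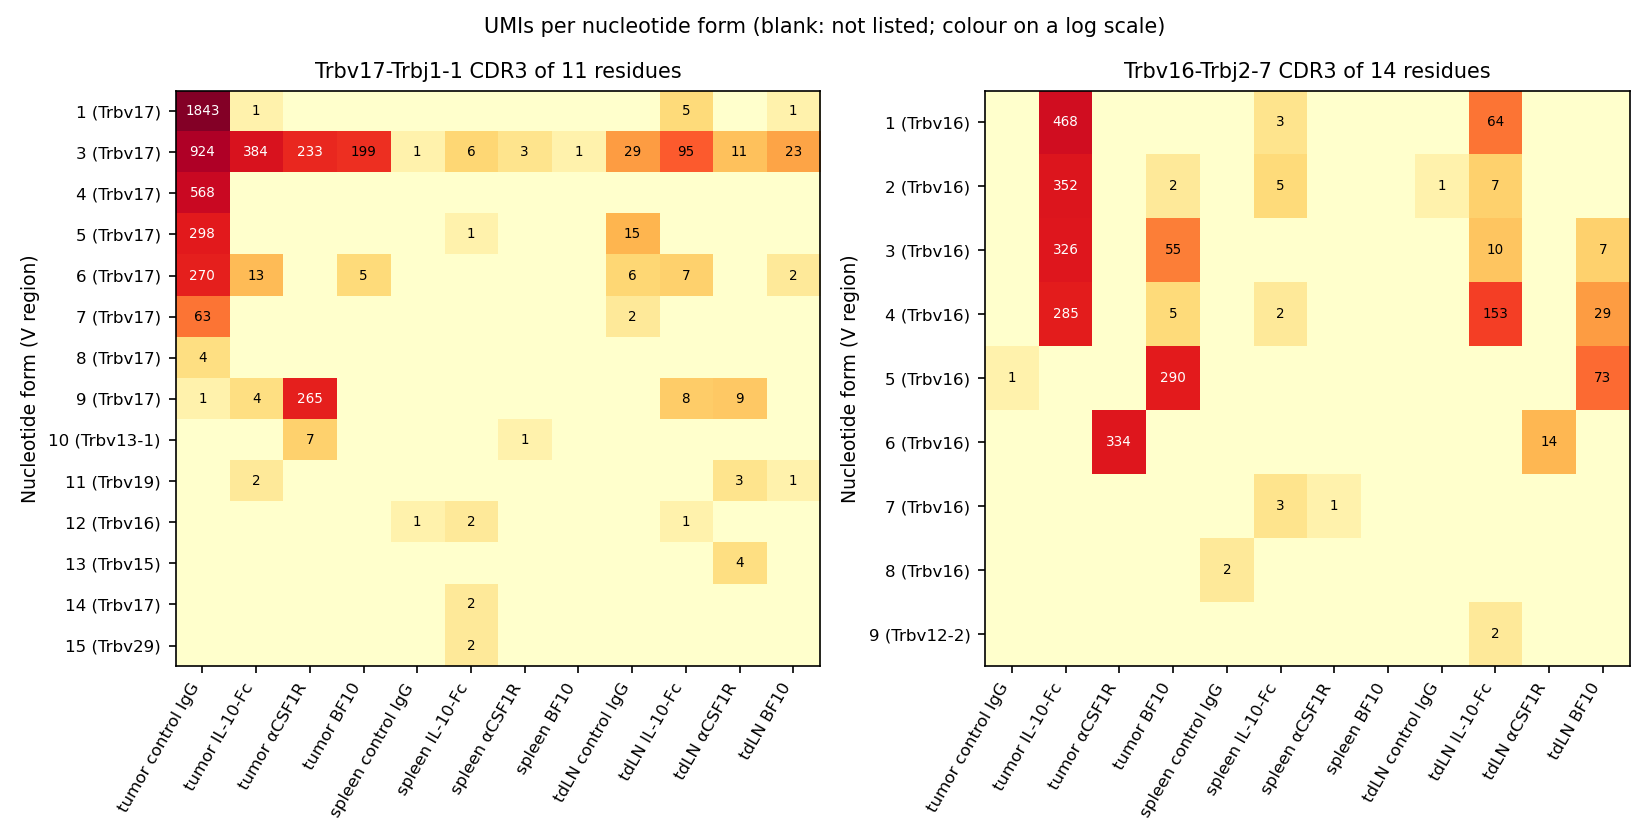
UMIs of counted nucleotide forms (rows, numbered as in the text, with the V region) in each of the 12 libraries (columns) for the Trbv17-Trbj1-1 CDR3 of 11 residues, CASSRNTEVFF, on the left and the Trbv16-Trbj2-7 CDR3 of 14 residues, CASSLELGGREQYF, on the right. Colour follows UMIs on a log scale, blank cells were not listed and 1 form on the left is not shown; form 3 on the left is listed in all 12 libraries, while on the right forms 1 to 4 lead in IL-10-Fc, form 5 in BF10 and form 6 in αCSF1R mice.

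A single V region was found for 4 of 17 convergent CDR3s in the control IgG tumor, 16 of 345 in the IL-10-Fc tumor and 19 of 688 in the BF10 tumor. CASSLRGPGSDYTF, from Trbv12-1 and Trbj1-2, had 6 forms and 151 UMIs in the control IgG tumor. It had 25, 0 and 4 UMIs in the IL-10-Fc, αCSF1R and BF10 tumors, at most 3 in spleens and 12 to 37 in tdLNs. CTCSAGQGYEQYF, from Trbv1 and Trbj2-7, had 4 forms and 55 UMIs in the IL-10-Fc tumor and was convergent in no other library. Convergent CDR3s with a single V region took 5.68% of beta UMIs in the control IgG tumor, 1.33% in the IL-10-Fc tumor and 0.177% in the BF10 tumor, against 0.149% to 0.319% in spleens and tdLNs. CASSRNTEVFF alone held 5.48% in the control IgG tumor, and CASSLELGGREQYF alone 1.10% in the IL-10-Fc tumor.

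The other leading convergent CDR3s of tumors mixed V segments. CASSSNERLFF, with 5 forms from 5 V regions, had 74 UMIs in the IL-10-Fc tumor, 6 in the BF10 tumor and none in the other tumors. It had 4, 16, 7 and 0 UMIs in the spleens and 4, 6, 15 and 15 in the tdLNs. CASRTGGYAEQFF had 35 UMIs in the IL-10-Fc tumor and 32 in the IL-10-Fc tdLN, and 2 in the BF10 tumor. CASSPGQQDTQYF had 44 UMIs in the IL-10-Fc tumor and 40 in the BF10 tumor, 46 to 80 in spleens and 24 to 29 in tdLNs. The spleen values of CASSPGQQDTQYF all exceeded its tdLN values.

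CDR3s with a far larger share of UMIs in the tumor than in the spleen of the same treatment were counted. A share at least 10-fold that in the spleen, taken among CDR3s with at least 8 UMIs in the tumor and with 3 UMIs as the floor in the spleen, was found for 4 of 17 in the control IgG tumor. These were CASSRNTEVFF, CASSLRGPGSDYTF, a CDR3 of 15 residues with 5 forms from 5 V regions, and the string of 109 residues. Over all CDR3s with at least 8 UMIs there, 13.7% passed. In the IL-10-Fc tumor, 2 of 345 passed, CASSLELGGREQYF and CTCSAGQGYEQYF, against 3.47% of all. In the αCSF1R tumor 1 of 1 passed, against 84.5% of all, and in the BF10 tumor 0 of 688, against 1.04% of all. With this floor, a CDR3 at the median of convergent CDR3s, 15 UMIs in the IL-10-Fc tumor and 14 in the BF10 tumor, could not reach 10-fold whatever the spleen held. UMIs in the tumor were also used by the rule, so nothing is read from these counts.

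V and J use of convergent CDR3s differed from that of all beta CDR3s. Trbj2-7, Trbv16 and Trbv3 had the larger share among convergent CDR3s in each tissue, while for Trbj2-5, Trbj1-1 and Trbv19 the sign of the difference was not the same in every tissue. Each CDR3 was given the V and J of its largest form, and tumor values are those of IL-10-Fc and BF10, the tumor libraries with over 100 convergent CDR3s. Trbj2-7, whose end encodes the residues YEQYF, was used by a mean of 31.8% of convergent CDR3s in spleens (range over 4 libraries 29.6% to 33.5%), 30.5% in tdLNs (27.7% to 35.0%) and 33.7% in tumors (32.1% and 35.4%). Over all beta CDR3s its use was 19.3%, 19.3% and 19.6%. The use of Trbj2-1 (chr6:41542754-41542803, plus strand) hardly differed, at 14% of both in spleens, nor did that of Trbj2-5 (chr6:41543453-41543501), at 11.5% and 11% there. Trbj1-1 was used by 9.95% against 8.85% in tdLNs. Trbj1-4 (chr6:41534811-41534861) was less used, at 3.08% of convergent against 6.45% of all CDR3s in spleens and 3.70% against 7.28% in tdLNs. Trbj2-2 (chr6:41542957-41543007) was used by 2.25% against 5.73% in tumors.

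Of the V segments, Trbv16 was the most used among convergent CDR3s in each tissue. It was used by 17.4% of them in spleens (16.3% to 18.1%) against 11.3% of all, by 22.6% in tdLNs (20.5% to 24.2%) against 10.4%, and by 19% in tumors against 11.9%. Trbv3 (chr6:41048394-41048824) was used by 12.0% against 6.95% in spleens, 16.5% against 7.93% in tdLNs and 11.5% against 6.96% in tumors. Trbv29 (chr6:41271403-41271881) was used by 13.9% against 11.3% in spleens, where its range of 8.06% to 18.1% was wide, and by 16.3% against 13% in tumors. Trbv1 (chr6:40891296-40891885), whose germline CDR3 starts with CTCSA, was used by 1.04% against 7.08% in spleens. Trbv13-2 (chr6:41121396-41121832) was used by 0.508% against 6.38% in tumors. In tdLNs Trbv19 (chr6:41178589-41179048) was used by 8.35% against 8.87%.

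Convergent CDR3s were shorter than the rest. The mean length was 13.2 to 13.3 residues in spleens and 13.1 to 13.2 in tdLNs, against 14 to 14.1 and 14 over all CDR3s. CDR3s of under 13 residues made up 26.5% to 29.6% of convergent CDR3s in spleens, against 14.4% to 15.2% of those with 1 counted form. In tdLNs these shares were 26.0% to 31.4% and 14.1% to 15%. A single-form mean of 14 in the control IgG tumor stood against 18.7 for its 17 convergent CDR3s, which include the string of 109 residues.

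Their forms also held fewer bases that no germline segment gives. Bases left after the V, J and longest D match numbered 3.9 to 3.93 per form in spleens for CDR3s with 1 form, and 1.88 to 2.03 for convergent ones. In tdLNs the means were 3.54 to 3.81 and 1.49 to 1.77. Forms with no such base made up 5.67% to 5.81% of the forms of CDR3s with 1 form and 22.9% to 25.2% of convergent forms in spleens, and 6.37% to 8.39% and 26.7% to 34.0% in tdLNs. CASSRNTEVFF form 3, printed above, is of this kind. The number of synonymous codings that a CDR3 allows, as a log10 per residue, differed little, at 0.505 to 0.506 with 1 form and 0.506 to 0.510 for convergent CDR3s in spleens. These features bear on how many forms a CDR3 can have, so they are not independent of the rule.

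**Figure D4:**
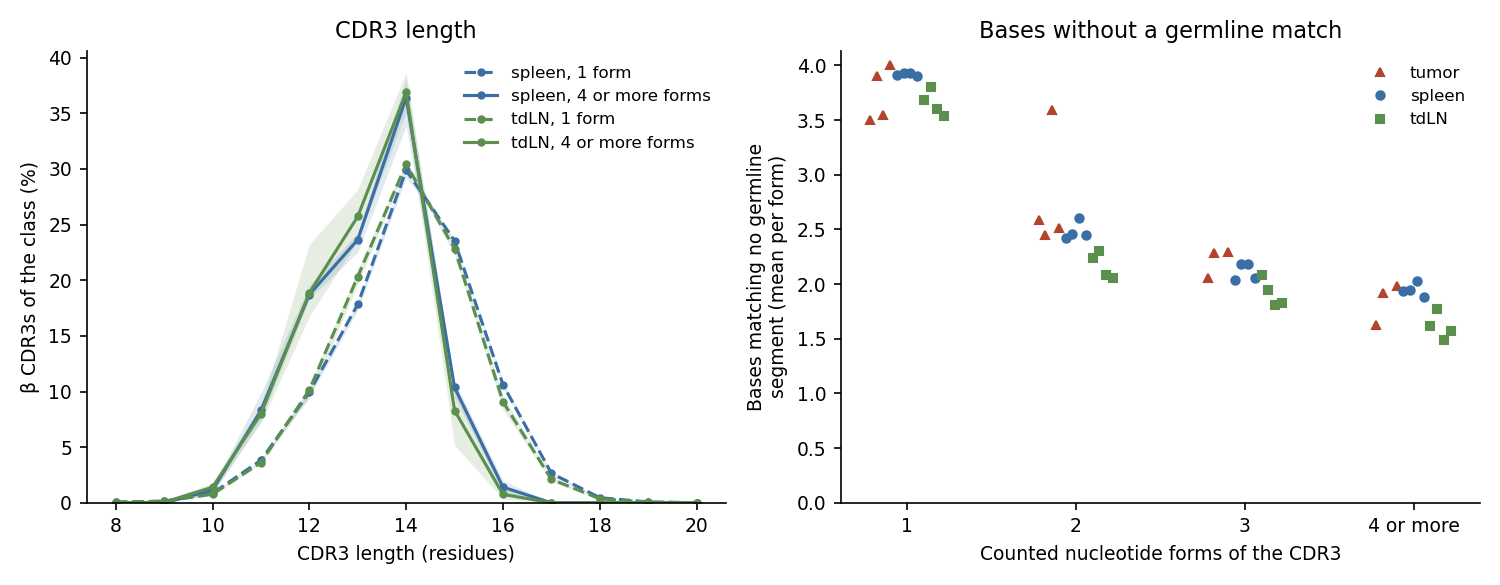
Left, CDR3 length (x axis, residues) as a share of CDR3s (y axis, %) for CDR3s with 1 counted form (dashed) and at least 4 (solid) in spleens and tdLNs, with lines for the mean and bands for the range of 4 libraries. Right, mean number of bases per form that match no germline V, D or J segment, by the number of counted forms, with a point for each library (triangles for tumors, circles for spleens, squares for tdLNs; the αCSF1R tumor has too few CDR3s for a point with at least 3 forms); every spleen and tdLN library has a lower mean for convergent CDR3s than for those with 1 form.

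The residues in the middle of the CDR3, outside the first 4 and the last 4, differed as well. These positions include residues that germline ends encode, such as the leucine of Trbv16 and Trbv3 and the first tyrosine of YEQYF from Trbj2-7. The differences are therefore not separate from the segment use above, and its part in them was not tested. Means over the 10 libraries other than the control IgG and αCSF1R tumors were 9.72% leucine in convergent CDR3s against 5.72% in those with 1 form, 7.45% against 4.43% tyrosine, 23.3% against 20.8% glycine and 9.33% against 7.90% serine. Glutamate was lower, at 2.78% against 5.10%, as were arginine, at 3.91% against 6.14%, and alanine, at 6.5% against 8.43%. Valine was at 0.647% against 2.0% and histidine at 0.0511% against 0.773%.

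Convergent CDR3s were compared between libraries to ask whether tissues of the same treatment shared more of them. In the tumor and tdLN of the same treatment, 11 were shared in control IgG mice, or 64.7% of the 17 in the tumor and 3.75% of the 293 in the tdLN. The number was 182 in IL-10-Fc mice (52.8% and 32.5%), 215 in BF10 mice (31.2% and 48.6%) and 1 in αCSF1R mice (100.0% and 0.207%). Between tumor and spleen 12, 190, 0 and 240 were shared, and between spleen and tdLN 137, 245, 198 and 174. As a share of the smaller library, the mean over same-treatment pairs of tumor and tdLN was 66.5%, and over different-treatment pairs 50.1%, a ratio of 1.33. An exact permutation test, one-sided and over all 24 pairings of treatments, gave p = 0.292, or 0.875 after Benjamini-Hochberg adjustment over 3 tissue pairs. For spleen and tdLN the ratio was 0.958 (exact p = 1.0, adjusted 1.0), and for tumor and spleen 0.818 (exact p = 0.833, adjusted 1.0). The smallest p these pairings allow is 0.0417. After the adjustment, a value under 0.05 is possible only if all 3 tissue pairs are at this smallest p. Nothing is therefore concluded from the tests not passing. The αCSF1R tumor holds 1 convergent CDR3, and without the αCSF1R libraries the tumor and tdLN ratio was 1.01 (exact p = 0.5 over 6 pairings, which are too few to pass). With the αCSF1R tumor and tdLN both left out, the same-treatment and different-treatment shares were thus close in value. This is a description, and nothing is concluded from it.

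**Figure D5:**
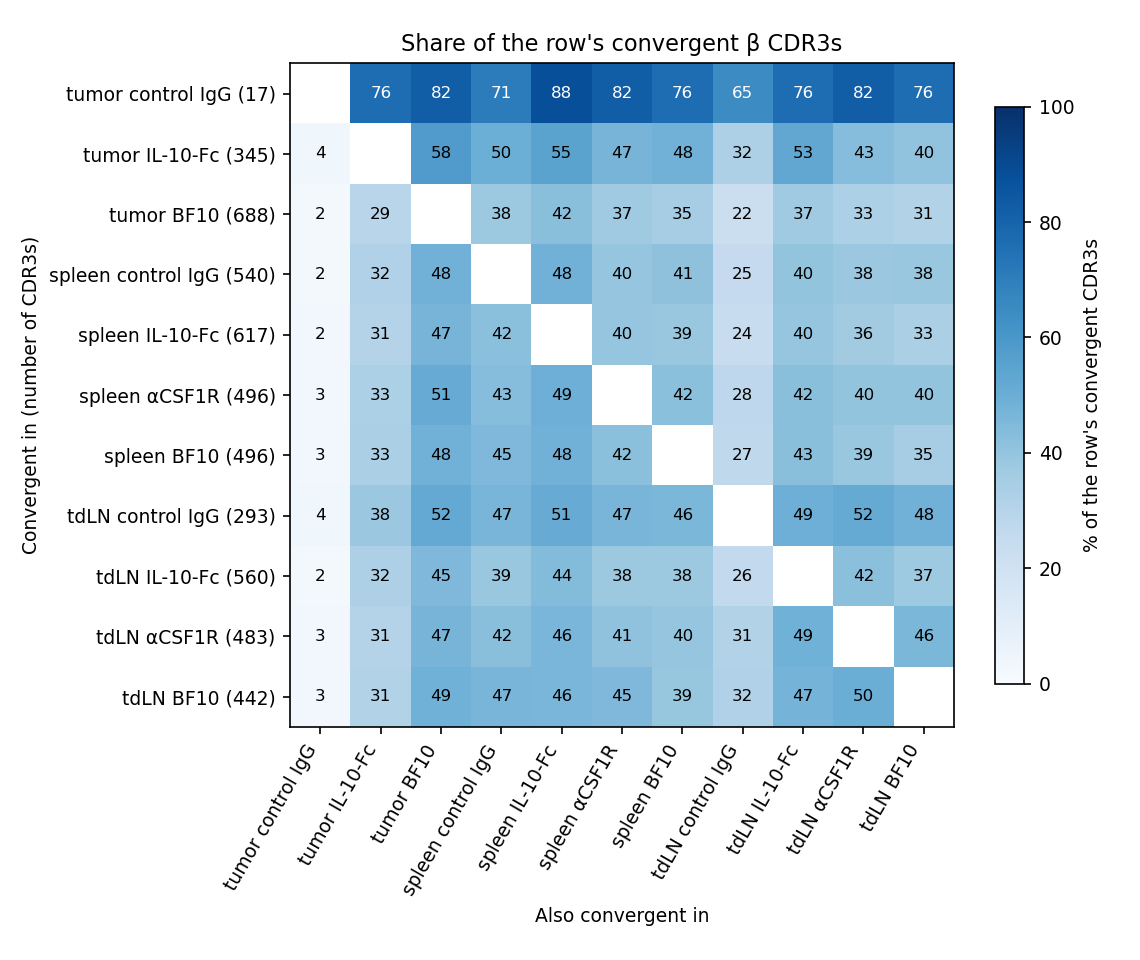
Share of the convergent beta CDR3s of the row's library (number in parentheses) that were also convergent in the column's library, in % and as colour. The αCSF1R tumor, with 1 convergent CDR3, is left out; between spleens and tdLNs, pairs of the same treatment and pairs of different treatments lie in the same range.

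CDR3s just inside and just outside the threshold were compared last. With exactly 4 forms, the most abundant CDR3 was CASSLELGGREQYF in tumors (1431 UMIs in counted forms, IL-10-Fc) and in tdLNs (229 UMIs, IL-10-Fc), and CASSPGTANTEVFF in spleens (132 UMIs, αCSF1R). With exactly 3 forms, it was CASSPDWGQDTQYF in tumors (156 UMIs, IL-10-Fc), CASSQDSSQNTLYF in spleens (39 UMIs, BF10) and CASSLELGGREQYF in tdLNs (109 UMIs, BF10). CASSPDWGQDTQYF was outside the rule in the IL-10-Fc tumor and convergent in all 4 spleens, and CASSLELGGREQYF stood on either side of it in 2 tdLN libraries.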

How the data were processed

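T cell receptor libraries of CD8+ T cells (QIAseq Immune Repertoire RNA kit, 12 libraries, 3 mice pooled in each) were analysed from the clonotype tables. The authors processed the reads in Qiagen's analysis portal, which groups reads by UMI and assigns V, J and CDR3. Its version, germline reference and error correction are not given in the sources used here, and the labels name build mm10. The deposited values are raw counts of UMIs per clonotype, not normalized, in columns that ask for a read support of at least 3 and up to 7 reads per UMI.

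TRBC rows were used, and 726 of 968766 rows with an undetermined base were left out. Rows with the same CDR3 nucleotide sequence were summed within a library and given the V and J with the most UMIs. Numbers at equal UMIs are expected values of random thinning without replacement, computed in closed form. Intervals are 95% Wilson intervals for shares and exact binomial intervals for ratios of 2 counts, and 3 UMIs were taken as the floor. Molecules of 1 library can come from the same cell, so intervals cover counting error only. Depth was 32775 to 210520 beta UMIs, and 3 UMIs are 0.00143% to 0.00915% of them. Germline ends were read from GRCm38.p6 with the RefSeq annotation. Trbv26 has no germline CDR3 end in that annotation, so its forms have no value for unmatched bases.

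Named CDR3s are the one with the most forms in each library, the 5 convergent in the most libraries, the 3 of each tumor with the largest UMI share and the 3 with the largest second form, and the most abundant with exactly 4 and exactly 3 forms in each tissue. Named segments are the 3 V and 3 J most used in each tissue and the 2 of each that differ most from all CDR3s. By the mean over all 4 tumors the single CDR3 of the αCSF1R library would count as 100%, so tumor means were taken over the libraries with over 100 convergent CDR3s. The members, lists and tests were chosen with earlier results of these data known. The alternatives were equal UMI totals, another exclusion of near forms or none, at least 3 or 5 forms, at least 1 or 3 UMIs per form, UMIs with at least 7 reads, forms of 1 V and J, no CDR3 over 30 residues, and no αCSF1R libraries. The last 2 were chosen after seeing the data. TRAC, TRGC and TRDC chains were not used here. The sequence and values of 1 nucleotide form are not reported here. The steps were tested on simulated data. Python 3.11.15, pandas 2.3.3, numpy 2.4.6, SciPy 1.17.1 and Matplotlib 3.10.9 were used.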

Additional observations from a re-analysis of the deposited data

Results flagged for a closer look

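Some ratios of convergent CDR3s between treatments pointed in different directions in the 3 tissues, with 1 library per group, and none of these differences was tested. BF10 over control IgG was 40.5 in tumors, 0.919 in spleens and 1.51 in tdLNs as listed, and 1.19, 0.958 and 0.440 at equal UMIs. BF10 over IL-10-Fc was 1.99 in tumors, 0.804 in spleens and 0.789 in tdLNs as listed, and 0.553, 1.01 and 0.599 at equal UMIs, so the tissue that stood apart changed. αCSF1R over control IgG was 0.0588 in tumors, 0.919 in spleens and 1.65 in tdLNs as listed. IL-10-Fc over control IgG at equal UMIs was 2.15 in tumors, 0.949 in spleens and 0.735 in tdLNs. The other ratios lay on the same side in all 3 tissues, with αCSF1R over control IgG at equal UMIs at 0.213, 0.918 and 0.469 and IL-10-Fc over control IgG as listed at 20.3, 1.14 and 1.91.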

How the results depend on the processing

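No treatment and tissue had a second library to serve as a replicate, so no replicate could be left out. Tissues could be paired by treatment only, with 1 library on each side. The overlap test permutes the pairing of tissues by treatment. The main values were ratios of 1.99 (tumor BF10 over IL-10-Fc), 20.3 (tumor IL-10-Fc over control IgG), 1.14 (spleen IL-10-Fc over control IgG) and 1.51 (tdLN BF10 over control IgG), 1994 distinct convergent CDR3s and 60 in all 8 spleen and tdLN libraries. At equal UMIs the ratios were 0.553, 2.15, 0.949 and 0.440. Leaving out every form 1 base from any larger form gave a tdLN ratio of 1.20, 1153 CDR3s, 10 in all 8, and a spleen and tdLN overlap ratio of 1.04 (exact p = 0.125). At least 3 forms gave 4702 and 110, and overlap ratios of 0.986 for tumor and tdLN (exact p = 0.542) and 1.06 for tumor and spleen (exact p = 0.0833). At least 5 forms gave 994 and 26. Forms of at least 1 UMI gave ratios of 43.9 (tumor IL-10-Fc over control IgG), 1.44 (spleen) and 3.34 (tdLN), 7164 and 273 CDR3s, and a tumor and tdLN overlap of 0.989 (exact p = 0.667). Forms of at least 3 UMIs gave 8.75 in tumors for IL-10-Fc over control IgG, 527 and 6 CDR3s, and a tumor and spleen overlap of 1.01 (exact p = 0.458). UMIs with at least 7 reads gave 1.01 and 11.9 in tumors, 0.966 in spleens, 0.0417 in tdLNs (1 against 24 CDR3s), 332 CDR3s and 0 in all 8. Forms of 1 V and J gave 7.75 in tumors for IL-10-Fc over control IgG, 1.81 in spleens, 264 and 2 CDR3s, and a spleen and tdLN overlap of 1.005 (exact p = 0.458). No exclusion of near forms, no CDR3 over 30 residues and no αCSF1R libraries turned no direction and moved neither the 1994 nor the 60 by over 1.5 times. Counts of single libraries moved more with no exclusion of near forms. The αCSF1R tumor then held 4 convergent CDR3s against 1, and the control IgG tumor 25 against 17. No overlap test over all pairings of the treatments had an exact p under 0.05 under any alternative, but so few pairings can hardly pass. The pairings left without the αCSF1R libraries are too few to pass at all. The overlap of tumors could not be computed where a tumor library held no convergent CDR3, which was so with the stricter exclusion, at least 5 forms and 1 V and J. With at least 7 reads per UMI this was so for the αCSF1R tdLN. The cause of these changes was not tested, apart from fewer UMIs or forms by construction. Depth limits the αCSF1R tumor most, where 3 UMIs are 0.00915% of beta UMIs.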
